A study of Mus musculus with 12 samples.

Results

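The 10 Wnt ligand genes Wnt3, Wnt3a, Wnt4, Wnt5a, Wnt7a, Wnt7b, Wnt10a, Wnt10b, Wnt11 and Wnt16 were followed in mouse hair follicle stem cells and epidermis. They were chosen by name from the 34763 gene names on the array and were covered by 12 of its 55681 probes, 2 each for Wnt4 and Wnt16 and 1 for each other gene. The rule used names only, but the ligands were chosen with earlier results of these data known. Counts of ligands set beside shares of all genes are therefore a description. Where a gene had 2 probes, the one with the higher mean level over the arrays was used.

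Wnt ligands are secreted glycoproteins that carry a lipid, added by the acyltransferase Porcn and needed for their export by the carrier Wls. At the receiving cell they bind Frizzled receptors. With the co-receptors Lrp5 and Lrp6 some of them spare beta-catenin from destruction, so that it enters the nucleus and acts with TCF and LEF factors, while others act through receptors such as Ror2 without beta-catenin. In skin, Wnt signals maintain the basal layer of the epidermis and drive resting follicles into growth, and secreted antagonists are known to hold bulge stem cells in check.

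The series concerns hair follicle aging and the hemidesmosome collagen COL17A1. RNA was measured on 12 one-colour Agilent arrays, 1 array for each of 12 groups. Hair follicle stem cells (HFSCs) were sorted as CD34 high, ITGA6 high and SCA1 negative, and interfollicular epidermal cells (IFE) as ITGA6 high and SCA1 high, while total epidermal cells were taken without such a marker gate in the labels. HFSCs came from young (8 weeks) and aged (over 22 months) wild-type C57BL/6 mice, from control mice (wild type, 12 weeks) and from cKO mice (Col17a1 deleted from the K14 promoter, 12 weeks). The control and cKO mice had both received tamoxifen, 2 mg on 5 days by intraperitoneal injection. From each of these 4 kinds of mouse, HFSCs were taken without plucking and 3 days after the hair had been pulled by hand. Total epidermis and IFE came from untreated young and aged mice only. The K14 promoter is active in basal cells of epidermis and follicle, so the label does not limit the deletion to HFSCs. The labels do not say whether samples came from separate or pooled animals, so p-values rest on a spread between samples that may be technical.

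Levels are given as the log2 of the processed intensity minus the 75th percentile of the array, so that 0 is the 75th percentile itself and a difference of 1 is 2-fold. A probe that the scanner software did not mark as well above background has only an upper limit. Levels are compared between arrays for 1 probe and never between probes. Young and aged samples shared slide 1 and control and cKO samples slide 2. On slide 1 total epidermis, IFE and HFSCs lay in separate columns, so in the comparisons of epidermis with HFSCs population and slide column cannot be told apart. Between 49.71% and 64.97% of spots were well above background, and the arrays with the lowest median correlation with the others were those of unplucked control (0.888) and unplucked cKO HFSCs (0.893), against 0.907 to 0.93. The stem cell marker Cd34 stood between 3.62 and 6.68 on the 8 HFSC arrays, at 0.56 and 0.76 in total epidermis and at -3.04 in young IFE, and was not well above background in IFE of aged mice. In bulk samples, fewer cells of a type and less RNA per cell cannot be told apart.

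IFE carried more Wnt3, Wnt3a and Wnt4 transcript than HFSCs did. Between the IFE and unplucked HFSC arrays of young and aged mice, 3 of 10 ligands rose (Wnt3, Wnt3a and Wnt4), 0 fell and 7 did not pass, against 2.1% of 23973 genes that rose and 2.64% that fell (limma, adjusted p under 0.05). Between total epidermis and the same HFSC arrays, 2 of 10 rose (Wnt3 and Wnt3a) and 0 fell, against 1.87% of genes that rose and 2.02% that fell. The median log2 difference of the 10 ligands was 1.23 for IFE and 1.21 for total epidermis, beside 0.09 and 0.07 over all genes tested. Over the 6 other Wnt ligands tested it was 0 for IFE and 0.23 for total epidermis. Of those 6, 0 rose in either comparison, and 1, Wnt5b, fell in total epidermis. All 10 estimates lay above 0 in both comparisons, which share their HFSC arrays and so are not independent. For 8 of 10 ligands, each of the 4 epidermal arrays stood above each of the 8 HFSC arrays, as did 4.81% of 26450 genes. Wnt4 is among the 8 by its brighter probe but not by its second one, and the exceptions were Wnt5a and Wnt7b. With no filter on dim genes Wnt3a (adjusted p = 0.0501) and Wnt4 (0.0671) missed the threshold in IFE, and Wnt3 alone passed.

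**Figure D1:**
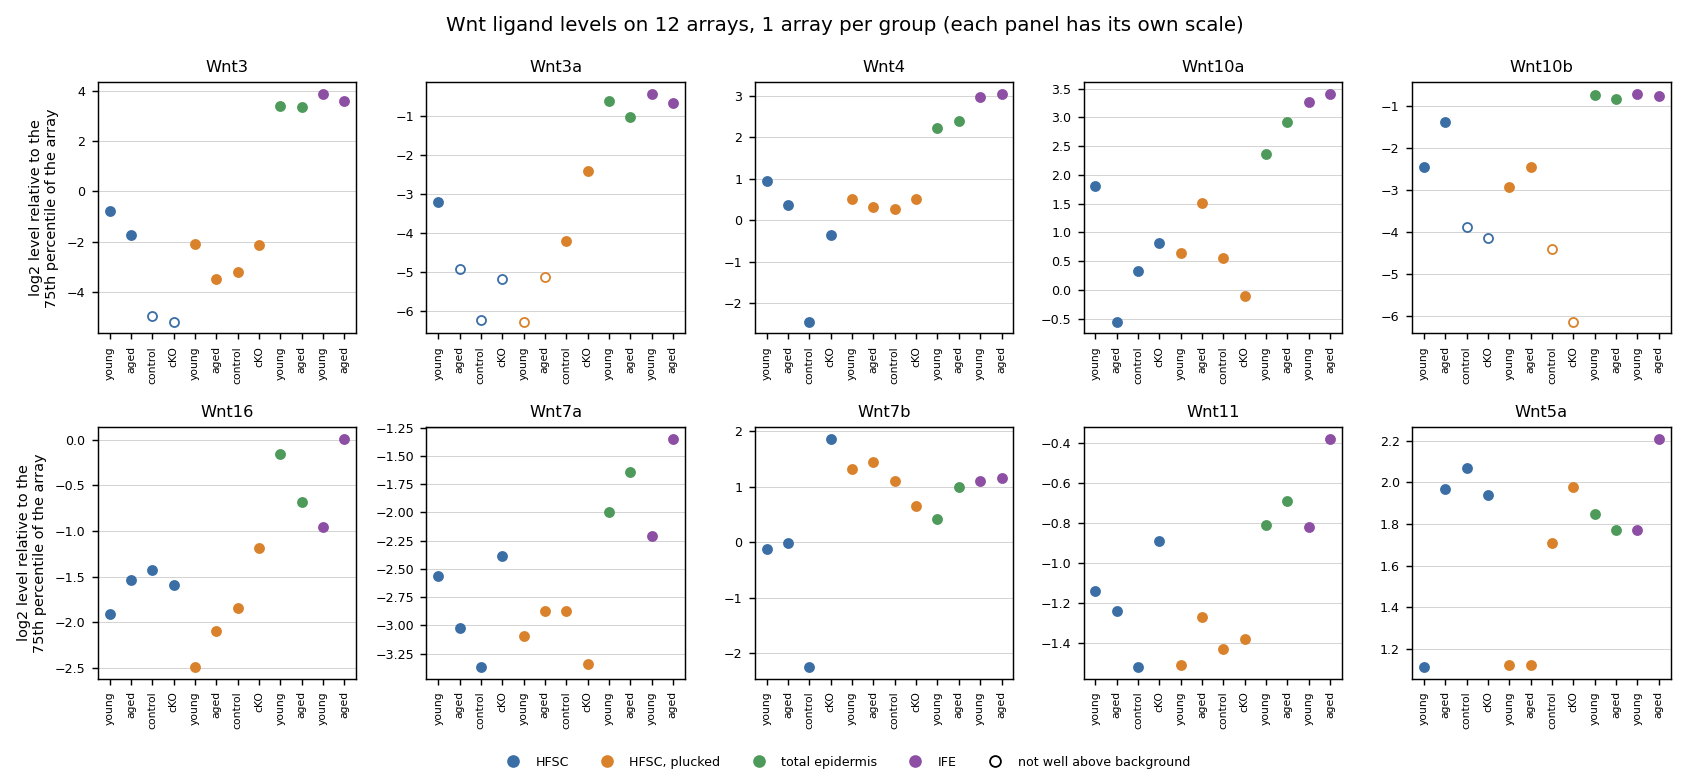
Level of each Wnt ligand on each of the 12 arrays, as log2 intensity relative to the array's 75th percentile, with 1 panel and 1 vertical scale per gene, colours for the cell population and open circles for probes not well above background. Wnt3 stood between 3.37 and 3.89 in the 4 epidermal samples and at or below -0.77 in all 8 HFSC samples, while the Wnt5a values of the groups overlapped.

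Wnt3, a ligand of the beta-catenin pathway needed for gastrulation in the embryo, was furthest apart. Its probe lies at chr11:103679038-103679097 (mm9). Wnt3 stood at 3.39 in young and 3.37 in aged total epidermis, and at 3.89 in young and 3.60 in aged IFE. In HFSCs without plucking it stood at -0.77 in young and -1.74 in aged mice, and was not well above background in control (-4.96) and cKO mice (-5.20). After plucking it stood at -2.08 in young, -3.48 in aged, -3.19 in control and -2.15 in cKO HFSCs. The 4 epidermal values lay close together, and the lowest of them was 4.14 log2 units above the highest HFSC value. Wnt3 rose 31.9-fold in IFE over HFSCs (log2 difference 5.00 ± 0.35, SE, n = 2 pairs, limma adjusted p = 0.011), by 4.66 in the young pair and 5.34 in the aged pair. In total epidermis it rose 24.9-fold over HFSCs (4.64 ± 0.35, adjusted p = 0.0196).

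Wnt3a, the ligand most used to switch on beta-catenin signalling in culture, lies on the same chromosome, with its probe at chr11:59061556-59061615 (mm9). In IFE of young and aged mice Wnt3a stood at -0.42 and -0.65, and in total epidermis at -0.60 and -1.01. In HFSCs it was well above background in young (-3.20), plucked control (-4.19) and plucked cKO cells (-2.41). It was not so in the other 5 HFSC samples, where the measured values lay between -6.28 and -4.93. Wnt3a was thus detected in every epidermal sample and in 3 of 8 HFSC samples, with no overlap. It rose in IFE over HFSCs (log2 difference 3.53 ± 0.46, SE, n = 2 pairs, limma adjusted p = 0.0305) and in total epidermis (3.26 ± 0.46, adjusted p = 0.0411). These estimates enter the aged HFSC sample at its dim value, since 1 of the 2 HFSC arrays measured the probe. In the young pair, measured on both sides, the differences were 2.77 in IFE and 2.59 in total epidermis. The call in total epidermis was lost with quantile scaling (adjusted p = 0.0565) and with no filter on dim genes (0.0698).

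Wnt4, a ligand known for its part in kidney tubule and ovary formation, was measured on all 12 arrays by its brighter probe at chr4:136855342-136855401 (mm9). In IFE of young and aged mice Wnt4 stood at 2.98 and 3.05, and in total epidermis at 2.22 and 2.40. In HFSCs without plucking it stood at 0.94 in young, 0.36 in aged, -2.46 in control and -0.36 in cKO mice. After plucking its 4 values were 0.50 in young, 0.32 in aged, 0.27 in control and 0.51 in cKO HFSCs. By this probe IFE was highest, total epidermis next and every HFSC sample lower, the unplucked control sample lowest. By the second probe plucked control HFSCs stood at 0.94, level with IFE of aged mice (0.94) and above total epidermis (-0.02 and 0.55), so that the groups overlapped. Wnt4 rose 5.16-fold in IFE over HFSCs (2.37 ± 0.33, SE, n = 2 pairs, adjusted p = 0.0335). The difference of total epidermis from HFSCs was 1.66 ± 0.33 and did not pass (adjusted p = 0.0741).

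The stretches just upstream of the starts of these 3 genes are shown because the genes stood high in the same samples. Each is the 250 bases before the RefSeq start on GRCm38, 5′ to 3′ on the strand of the gene, with the letters of the GC box GGGCGG, on either strand, in capitals and overlapping matches merged. They are Wnt3 at chr11:103773925-103774174 (plus strand), Wnt3a at chr11:59290752-59291001 (minus strand) and Wnt4 at chr4:137277385-137277634 (plus strand).
Wnt3: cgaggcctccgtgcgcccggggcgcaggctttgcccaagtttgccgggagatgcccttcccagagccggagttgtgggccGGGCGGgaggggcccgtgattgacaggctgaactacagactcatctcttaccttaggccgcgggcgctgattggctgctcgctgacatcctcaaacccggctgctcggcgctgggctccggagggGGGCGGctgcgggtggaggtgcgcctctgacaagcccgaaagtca
Wnt3a: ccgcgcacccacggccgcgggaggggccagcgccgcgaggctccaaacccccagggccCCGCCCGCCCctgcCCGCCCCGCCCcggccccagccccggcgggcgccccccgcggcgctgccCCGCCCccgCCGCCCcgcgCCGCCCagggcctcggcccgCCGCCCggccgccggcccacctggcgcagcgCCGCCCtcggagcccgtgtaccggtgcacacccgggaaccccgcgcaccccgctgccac
Wnt4: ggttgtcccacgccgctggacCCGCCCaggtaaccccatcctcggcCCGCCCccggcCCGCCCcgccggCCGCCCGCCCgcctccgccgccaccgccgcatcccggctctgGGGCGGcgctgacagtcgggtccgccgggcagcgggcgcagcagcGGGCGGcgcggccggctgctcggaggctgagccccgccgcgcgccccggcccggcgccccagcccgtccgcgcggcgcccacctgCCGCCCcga
The Wnt3 stretch was 68.0% G or C and held 2 GC boxes, that of Wnt3a 87.6% with 9, and that of Wnt4 85.2% with 8, beside a median of 52.4% G or C over 32851 promoter windows. The RefSeq table matched 7 of 10 ligands, and 5 of the 7 held a GC box, as did 32.7% of all windows. The letters CTTTGA, the core read by TCF and LEF factors, were found on either strand for 1 of the 7, Wnt11, beside 13.8% of windows, and CTTTGT for 0 of the 7, beside 16.5%. TGANTCA, read by AP-1, was found for 0 of the 7 (6.7% of windows), and TATAAA for 1 (12.4%). These matches describe letters in a short window and say nothing of binding.

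Wnt10a and Wnt10b, close relatives that signal through beta-catenin, stood higher in the epidermis as well, without passing the test. Wnt10a, whose loss in humans impairs teeth, hair and sweat glands, was measured at chr1:74850633-74850692 (mm9) and was well above background on all 12 arrays. In total epidermis Wnt10a stood at 2.37 in young and 2.92 in aged mice, and in IFE at 3.26 and 3.41. In HFSCs it stood at 1.80 in young, -0.56 in aged, 0.33 in control and 0.82 in cKO mice without plucking. After plucking it stood at 0.64 in young, 1.51 in aged, 0.56 in control and -0.10 in cKO HFSCs. The young HFSC sample came within 0.56 log2 units of the lowest epidermal sample, while the aged one was the lowest of all. The IFE difference was 2.71 ± 0.78 (SE, n = 2 pairs, adjusted p = 0.153), with 1.45 in the young pair and 3.96 in the aged pair, and that of total epidermis 2.02 ± 0.78 (adjusted p = 0.245).

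Wnt10b, an early ligand of hair follicle formation, was measured at chr15:98602209-98602268 (mm9). Wnt10b stood between -0.85 and -0.72 in the 4 epidermal samples. In HFSCs it stood at -2.45 in young and -1.40 in aged mice without plucking and at -2.94 and -2.45 after it. It was not well above background in any of the 4 control and cKO samples, where its values were -3.89 and -4.15 without plucking and -4.41 and -6.14 after it. Detection of Wnt10b thus split by slide: all 8 samples of slide 1 and 0 of the 4 samples of slide 2. The samples of slide 2 were also the only ones from tamoxifen-treated mice and from mice of 12 weeks. Slide, tamoxifen and age cannot be told apart here. The IFE difference was 1.18 ± 0.40 (SE, n = 2 pairs, adjusted p = 0.206) and that of total epidermis 1.13 ± 0.40 (adjusted p = 0.216).

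Wnt16, Wnt7a and Wnt11 also had higher values in the epidermis, without passing the test by the probes used. Wnt16, a ligand known for cortical bone strength, stood at -0.15 in young and -0.68 in aged total epidermis, and at -0.96 and 0.01 in IFE, by its brighter probe (chr6:22247804-22247863, mm9). In HFSCs it ran from -2.49 to -1.19 over 8 samples, with a gap of 0.23 below the lowest epidermal value. The IFE difference was 1.24 ± 0.44 (SE, n = 2 pairs, adjusted p = 0.22). By the second Wnt16 probe, described with the probes, it was 3.42, with neither HFSC sample of the comparison well above background. Wnt7a, which patterns the back of the limb, was measured at chr6:91314653-91314712 (mm9). It stood between -2.21 and -1.35 in the epidermis and between -3.37 and -2.39 in HFSCs, with an IFE difference of 1.01 ± 0.40 (adjusted p = 0.269). Wnt11, a ligand of the branch without beta-catenin (chr7:106001985-106002045, mm9), stood between -0.82 and -0.38 in the epidermis and between -1.52 and -0.89 in HFSCs. Its IFE difference was 0.59 ± 0.29 (adjusted p = 0.353). For Wnt16, Wnt7a and Wnt11 the gap between the populations, 0.23, 0.18 and 0.08, was smaller than the spread within each of them. The same held for Wnt10a, with a gap of 0.56.

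Wnt7b and Wnt5a did not separate the populations. Wnt7b, a ligand of lung and kidney growth that bulge cells also make, was measured at chr15:85366896-85366955 (mm9). Total epidermis gave 0.42 in young and 1.00 in aged mice, and IFE gave 1.10 and 1.16. In HFSCs without plucking it stood at -0.13 in young, -0.02 in aged, -2.25 in control and 1.86 in cKO mice. After plucking it stood at 1.31 in young, 1.44 in aged, 1.10 in control and 0.65 in cKO HFSCs. The highest Wnt7b value of the series was thus that of unplucked cKO HFSCs and the lowest that of unplucked control HFSCs, with the epidermis between them. Against the unplucked young and aged HFSC samples alone, each epidermal Wnt7b value was higher. The IFE difference from these HFSCs was 1.21 ± 0.29 (SE, n = 2 pairs, adjusted p = 0.109), with 1.24 in the young pair and 1.19 in the aged pair.

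Wnt5a, the best known ligand of the branch without beta-catenin, which acts through Ror2, was measured at chr14:29336664-29336723 (mm9). It stood between 1.77 and 2.21 in the 4 epidermal samples and between 1.11 and 2.07 in the 8 HFSC samples. The low values came from young HFSCs (1.11), plucked young HFSCs (1.12) and plucked aged HFSCs (1.12), and 4 of the other 5 HFSC samples stood within the range of the epidermal ones. The IFE difference was 0.45 ± 0.34 (SE, n = 2 pairs, adjusted p = 0.532) and that of total epidermis 0.27 ± 0.34 (adjusted p = 0.713). With 2 pairs and 2 residual degrees of freedom, these values leave a difference of this size undecided.

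**Figure D2:**
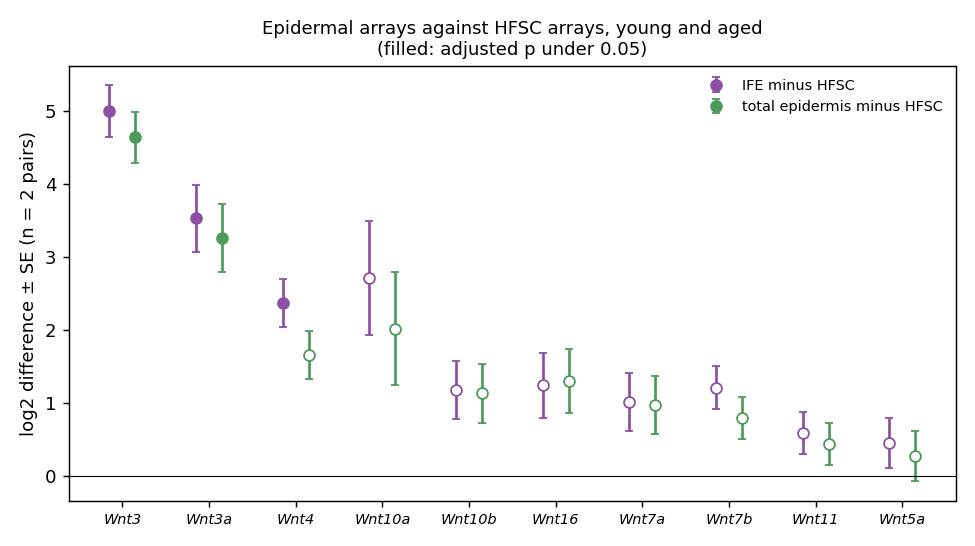
Log2 difference of IFE (purple) and of total epidermis (green) from unplucked HFSCs for each Wnt ligand, as the estimate and its moderated SE over the young and aged pairs, filled where the adjusted p was under 0.05. Wnt3 stood at 5.00 and 4.64, and the other ligands ranged down to Wnt5a at 0.45 and 0.27.

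Markers of other cells moved with these comparisons. The mean level of 4 basal and SCA1 markers (Ly6a, Krt14, Krt5 and Itga6) was 6.24 to 6.84 in the 4 epidermal samples and 4.37 to 5.51 in HFSCs, highest there in the young unplucked sample. Ly6a, which encodes the SCA1 of the sorting gate, differed most, with 3.33 to 4.37 in the epidermis and -3.69 to 0.30 in HFSCs. Krt5 stood between 8.12 and 8.63 in the epidermis and between 8.19 and 8.83 in HFSCs, and Krt14 overlapped as well. That young HFSC sample also had the highest HFSC mean of 5 suprabasal markers (Krt1, Krt10, Ivl, Lor and Sbsn), 3.45 against 1.46 to 3.40. Its values of Wnt3, Wnt10a and, by the brighter probe, Wnt4 were the highest among HFSCs. By the second Wnt4 probe it stood at -0.68, below plucked control HFSCs (0.94). The differences of these 3 ligands were larger in the aged pair, which lacks that sample. In total epidermis, 4 T cell markers had a mean level of 0.63 in young and 1.33 in aged mice, against -4.16 to -1.82 elsewhere. The Langerhans and myeloid list stood at -0.70 and 0.35 there, against -2.64 to -1.69 elsewhere. Of the T cell markers, Thy1 stood at 2.74 and 2.52 in IFE of young and aged mice and at 1.93 and 3.00 in total epidermis. The part of these markers in the ligand values was not tested.

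Other genes of the Wnt pathway passed the test in both directions. Of 57 other genes of a list of ligands, carriers, receptors, antagonists and targets, 44 were tested between IFE and HFSCs, and 3 rose, 10 fell and 31 did not pass (median -0.62), beside 2.1% of all genes that rose and 2.64% that fell (median 0.09). Between total epidermis and HFSCs, 3 rose, 11 fell and 30 did not pass (median -0.65), beside 1.87% and 2.02% (median 0.07). No test set the pathway genes against the ligands. Of the genes called, Fzd9, Ror2 and Wif1 were well above background on no epidermal array, Rspo3 on no HFSC array and Lgr5 on no IFE array. Their calls, and the counts that hold them, enter dim values on that side. Fzd9, Ror2, Wif1 and Rspo3 met the filter only through the side where they stood high. The same filter applied to all genes. Among receptors, Fzd10 rose and Fzd1, Fzd2, Fzd7, Fzd9 and Ror2 fell in both comparisons, 6 of 14 tested. Fzd10 stood at 2.60 in both IFE samples, at 1.68 and 2.11 in total epidermis of young and aged mice, and between -5.07 and -0.23 in HFSCs. The lowest value, that of unplucked cKO HFSCs, was not well above background. Fzd10 was 50.1-fold higher in IFE than in HFSCs (5.65 ± 0.35, SE, n = 2 pairs, adjusted p = 0.01). Fzd2 ran the other way, between 3.99 and 5.39 in HFSCs and between -0.97 and -0.29 in the epidermis, and was 51.4-fold lower in IFE (-5.68 ± 0.35, adjusted p = 0.01). Fzd7 (-4.65 ± 0.28), Fzd1 (-4.01 ± 0.43), Fzd9 (at least 27.4-fold lower) and Ror2 (at least 2.44-fold lower) fell in IFE as well. Fzd3, which was well above background on 1 of the 2 IFE arrays, differed by -3.47 ± 0.59 in IFE (adjusted p = 0.0518) and by -2.26 ± 0.59 in total epidermis (adjusted p = 0.13), and Fzd5 by -1.69 ± 0.73 in IFE (adjusted p = 0.3).

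Among secreted antagonists and the R-spondin branch, Dkk3, Sfrp1, Wif1, Lgr4 and Lgr5 fell in IFE and Rspo3 rose. Of 6 antagonists tested, 3 did not pass, with Sfrp5 at 0.47 ± 0.31, Dkk4 at 0.37 ± 0.28 and Sostdc1 at -1.44 ± 0.27. Dkk3 stood between 1.87 and 4.36 in HFSCs and between -2.66 and -1.66 in the epidermis (IFE difference -6.21 ± 0.34, SE, n = 2 pairs, adjusted p = 0.00939). Sfrp1, which binds Wnt proteins outside the cell, was at -4.34 ± 0.33, and Wif1, another such binder, was at least 20-fold lower in IFE. Lgr5, a bulge receptor for R-spondins and itself one of the HFSC markers, was at least 285-fold lower in IFE, and its relative Lgr4 was at -2.86 ± 0.27, while Lgr6, the remaining receptor of this kind, was at -0.04 ± 0.27 (adjusted p = 0.957). Rspo3, an R-spondin ligand that raises Wnt receptor levels, was well above background in the 4 epidermal samples and in 0 of 8 HFSC samples, at least 7.73-fold higher in IFE. Of 9 nuclear factors and targets tested, Apcdd1, a membrane inhibitor that Wnt signalling induces, rose in IFE (3.28 ± 0.29) and 8 did not pass. Tcf7l1, a TCF factor that represses targets, was well above background on 0 of the 4 epidermal arrays, at least 4.68-fold lower in IFE (adjusted p = 0.0664) and at least 6.66-fold lower in total epidermis (adjusted p = 0.0586). Tcf7l2, another TCF factor, differed by -1.43 ± 0.27 in total epidermis (adjusted p = 0.0678). Of 3 secretion and acylation genes, 0 passed in either comparison. Porcn differed by -1.69 ± 0.29 in total epidermis (adjusted p = 0.0579), and the carrier Wls stood between 2.20 and 3.85 on all 12 arrays.

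**Figure D3:**
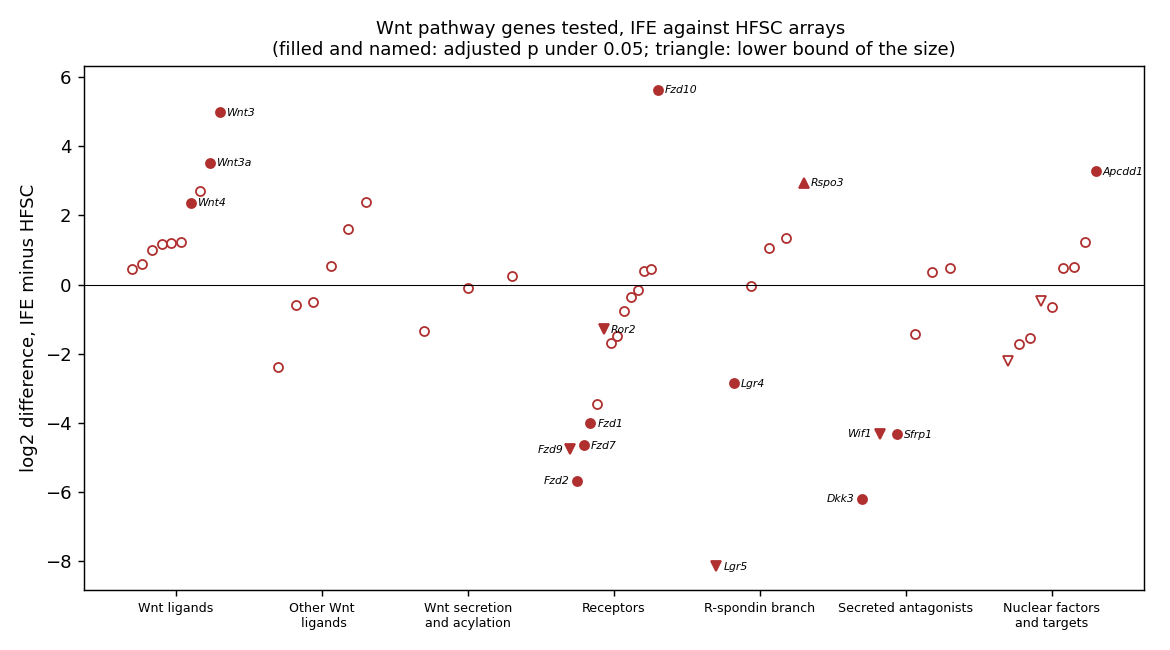
Log2 difference of IFE from unplucked HFSCs for the 10 Wnt ligands and 44 other tested Wnt pathway genes by role, as circles, or as triangles at the lower bound of the size for genes not well above background on the dim side. Filled and named genes had an adjusted p under 0.05. The 10 ligands lay between 0.45 and 5.00, while the named receptors lay on both sides of 0.

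Plucking is known to send resting follicles into growth, and the 4 pairs ask how ligand levels stood 3 days later. Of the 10 ligands, 0 passed (limma, adjusted p between 0.238 and 0.972), 1 had an unadjusted p under 0.05, and 0.499% of 25438 genes passed. Wnt10b was lower after plucking in 4 of 4 pairs (-1.01 ± 0.34, SE, n = 4 pairs, adjusted p = 0.238). It was measured above background in the young pair (-0.49) and the aged pair (-1.05) only. Wnt7b was higher in 3 of 4 pairs, by 1.45 in young, 1.46 in aged and 3.35 in control mice, and differed by -1.21 in cKO mice. Its estimate was 1.26 ± 0.74 (adjusted p = 0.436), and 0.57 without the control pair, whose unplucked sample had the lowest Wnt7b value. Wnt4 differed by -0.44 in young, -0.04 in aged, 2.73 in control and 0.87 in cKO mice. Its estimate was 0.78 ± 0.58 (adjusted p = 0.526), and 0.13 without the control pair. By the second Wnt4 probe the difference of means was 0.80, and control HFSCs stood at 0.49 without plucking and 0.94 after it.

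The other ligands had no common direction after plucking. Wnt3 differed by -1.31 in young and -1.74 in aged mice and by 1.77 in control and 3.05 in cKO mice, where the unplucked samples were not well above background. Wnt10a differed by -1.16 in young, 2.07 in aged, 0.23 in control and -0.92 in cKO mice. The estimates of Wnt5a, Wnt7a, Wnt11 and Wnt16 lay between -0.29 and -0.20, with SEs between 0.24 and 0.33. For 0 of 10 ligands did plucked and unplucked samples fail to overlap, beside 6.28% of genes higher and 4.42% lower without overlap. Plucked samples carried more cell cycle transcripts, with a mean level of 5 such genes of 1.36 to 2.50 against -3.52 to -1.52 without plucking, and the part of this in the ligand values was not tested. Of the 47 other pathway genes tested, only Fzd9 passed, which fell after plucking (-4.77 ± 0.54, adjusted p = 0.0482), and the closest to it was Fzd5, lower in 4 of 4 pairs (-2.77 ± 0.40, adjusted p = 0.0675). Fzd9 was not well above background in plucked aged and plucked control HFSCs, so its estimate enters dim values there.

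**Figure D4:**
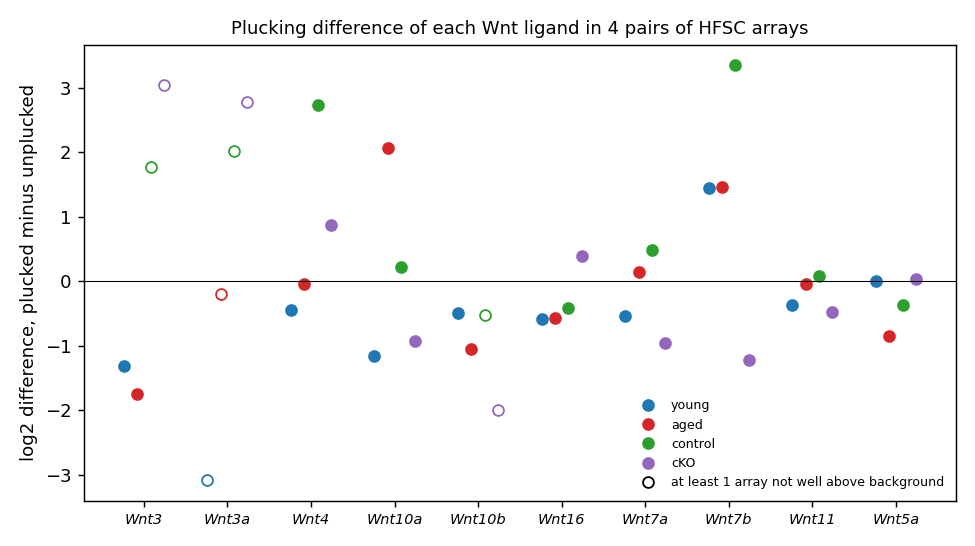
Log2 difference between plucked and unplucked HFSCs for each Wnt ligand in each of the 4 kinds of mouse, 1 point per pair of arrays, open where at least 1 array of the pair was not well above background. Wnt10b lay below 0 in all 4 pairs, from -1.99 to -0.49, and Wnt7b ranged from -1.21 in cKO to 3.35 in control mice.

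Whether plucking acted differently in aged and cKO HFSCs than in young and control HFSCs was tested directly. Of the 10 ligands 0 passed (limma, adjusted p = 0.999 for each), as did 0% of 25438 genes, with 1147 genes and 0 ligands at an unadjusted p under 0.05. Wnt7b had the largest estimate: its plucking difference averaged 0.12 in aged and cKO mice and 2.40 in young and control mice, a difference of -2.27 ± 1.23 (SE).

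Aged and young HFSCs did not differ past the threshold in any ligand. Of 25438 genes 0% passed (limma), with 1227 at an unadjusted p under 0.05, among them 0 ligands, and the adjusted p of the 10 ligands lay between 0.932 and 0.995. Wnt3 was lower in aged cells in both pairs (-1.19 ± 1.29, SE, n = 2 pairs), by -0.97 without and -1.40 after plucking. Wnt10b was higher in both (0.78 ± 0.49), by 1.06 and 0.49. Wnt10a differed by -2.36 without plucking and by 0.86 after it, so that its estimate (-0.75 ± 0.85) averages values of opposite sign. Among 47 other pathway genes tested, 0 passed. Sfrp2, an antagonist that binds Wnt proteins, was well above background in both aged samples (-1.72 and 0.53) and in neither young sample, at least 11.2-fold higher (adjusted p = 0.932). It was also well above background in both control samples (0.81 and -2.09). Fzd9 was lower in aged cells in both pairs (-2.25 ± 0.76, adjusted p = 0.932), with the plucked aged sample not well above background.

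Aged and young samples of the epidermis were compared over their 2 pairs. Of the 10 ligands 0 passed (limma, adjusted p between 0.776 and 0.962), as did 0% of 22833 genes, with 1490 genes and 0 ligands at an unadjusted p under 0.05. Wnt7a had the largest estimate, higher in aged cells by 0.35 in total epidermis and 0.85 in IFE (0.60 ± 0.27, SE, n = 2 pairs, adjusted p = 0.776). Wnt3 differed by -0.02 in total epidermis and -0.29 in IFE, and Wnt4 by 0.18 and 0.07. Of 39 other pathway genes tested, 0 passed. Sostdc1, a secreted inhibitor of Wnt and BMP signals, was lower in aged cells in both pairs (-1.43 ± 0.25, adjusted p = 0.606), and in aged HFSCs it differed by -1.38 ± 0.41 (adjusted p = 0.932). Young and aged samples lay in different rows of slide 1, and age and row cannot be told apart.

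Deletion of Col17a1 was set against the tamoxifen-treated control. Control and cKO samples lay in different columns of slide 2, and genotype and column cannot be told apart. Of the 10 ligands 0 passed (limma, adjusted p between 0.797 and 0.992), as did 0% of 25438 genes, with 1646 genes and 0 ligands at an unadjusted p under 0.05. Wnt7b was 17.3-fold higher in cKO than in control HFSCs without plucking (1.86 against -2.25) and differed by -0.45 after it (0.65 against 1.10). Its estimate was 1.83 ± 1.05 (SE, n = 2 pairs, adjusted p = 0.817). In that single unplucked pair, which has no test, 17.7% of 24088 genes were at least 2-fold higher, and its arrays were those least like the rest. Wnt4 was higher in cKO cells by 2.10 without plucking and 0.24 after it (1.17 ± 0.82, adjusted p = 0.848), but not by its second probe. Wnt10b was not well above background on either side, and Wnt3 and Wnt3a were so only after plucking, where Wnt3a differed by 1.78 and Wnt3 by 1.04. Among 47 other pathway genes tested, 0 passed. Wnt9a was well above background in both cKO samples (-1.25 and -2.43) and in neither control sample, at least 8.25-fold higher (adjusted p = 0.457). Fzd8 was higher in both pairs (2.21 ± 0.36, adjusted p = 0.457). Sfrp2 was at least 8.14-fold lower in cKO cells (adjusted p = 0.626), and Fzd10 was lower in both pairs (-3.05 ± 0.96, adjusted p = 0.718). Fzd10 was not well above background in unplucked cKO HFSCs, so its estimate enters a dim value there.

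Control and young HFSCs, both wild type, give the size of differences between cohorts, in which tamoxifen, age in weeks and slide cannot be told apart. Of the 10 ligands 0 passed (limma, adjusted p between 0.571 and 0.923), as did 0% of 25438 genes, and 2220 genes and 1 ligand had an unadjusted p under 0.05. That ligand was Wnt10b, at least 2.74-fold lower in control cells (adjusted p = 0.571). Wnt3 differed by -2.65 ± 1.29 (SE, n = 2 pairs) and Wnt4 by -1.81 ± 0.82. The Wnt3 estimate enters the unplucked control sample at a dim value, not well above background. The second Wnt4 probe gave the opposite sign, as described with the probes. Of the other pathway genes, Sfrp2 was at least 10.9-fold higher in control cells (adjusted p = 0.571) and Fzd10 higher in both pairs (2.04 ± 0.96, adjusted p = 0.582). Fzd9 (-2.13 ± 0.76, adjusted p = 0.571) and Wif1 (-1.93 ± 1.32, adjusted p = 0.656) were lower in both pairs. In plucked control HFSCs Fzd9 was not well above background.

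The 2 probes of Wnt4 and of Wnt16 did not give the same picture in every comparison. The second Wnt4 probe (chr4:136851690-136852258, mm9) covers a genomic interval longer than its 60 bases, so it crosses at least 1 intron, and both Wnt16 probes lie on chromosome 6 (chr6:22247804-22247863 for the brighter one and chr6:22241135-22241194 for the second, mm9). They are printed as given in the array files, in the probe's own direction. The capitals mark a run of 11 bases that the second probes of Wnt4 and Wnt16 share.
Wnt4, second probe: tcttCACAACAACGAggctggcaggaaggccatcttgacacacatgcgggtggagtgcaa
Wnt16, brighter probe: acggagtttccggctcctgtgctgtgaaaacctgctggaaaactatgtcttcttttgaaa
Wnt16, second probe: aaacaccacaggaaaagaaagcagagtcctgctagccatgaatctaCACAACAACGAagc
Both Wnt4 probes stood higher in IFE than in HFSCs, by 2.37 and 2.16, and in total epidermis, by 1.66 and 1.36. In control HFSCs they parted. The second probe stood at 0.49 there without plucking and at -2.31 in cKO HFSCs, where the brighter probe stood at -2.46 and -0.36. The cKO against control difference was thus 1.17 by one probe and -2.20 by the other, and the control against young difference -1.81 and 1.59. No direction for Wnt4 in these 2 comparisons can be read from the array. With age in HFSCs the brighter Wnt4 probe gave -0.38 and the second 0.12. The second Wnt16 probe was well above background in the 4 epidermal samples (-1.86 to -1.02) and in 3 of 8 HFSC samples. It was not well above background in unplucked young (-5.10) or unplucked aged HFSCs (-3.97), the HFSC samples of the epidermal comparisons. Its difference of 3.42 between IFE and HFSCs thus rests on dim HFSC values, while the brighter probe, measured on both sides, gave 1.24. With the probes averaged, Wnt16 passed in IFE (2.33, limma adjusted p = 0.031) and in total epidermis (2.15, adjusted p = 0.0412). Both calls enter the same dim HFSC values.

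**Figure D5:**
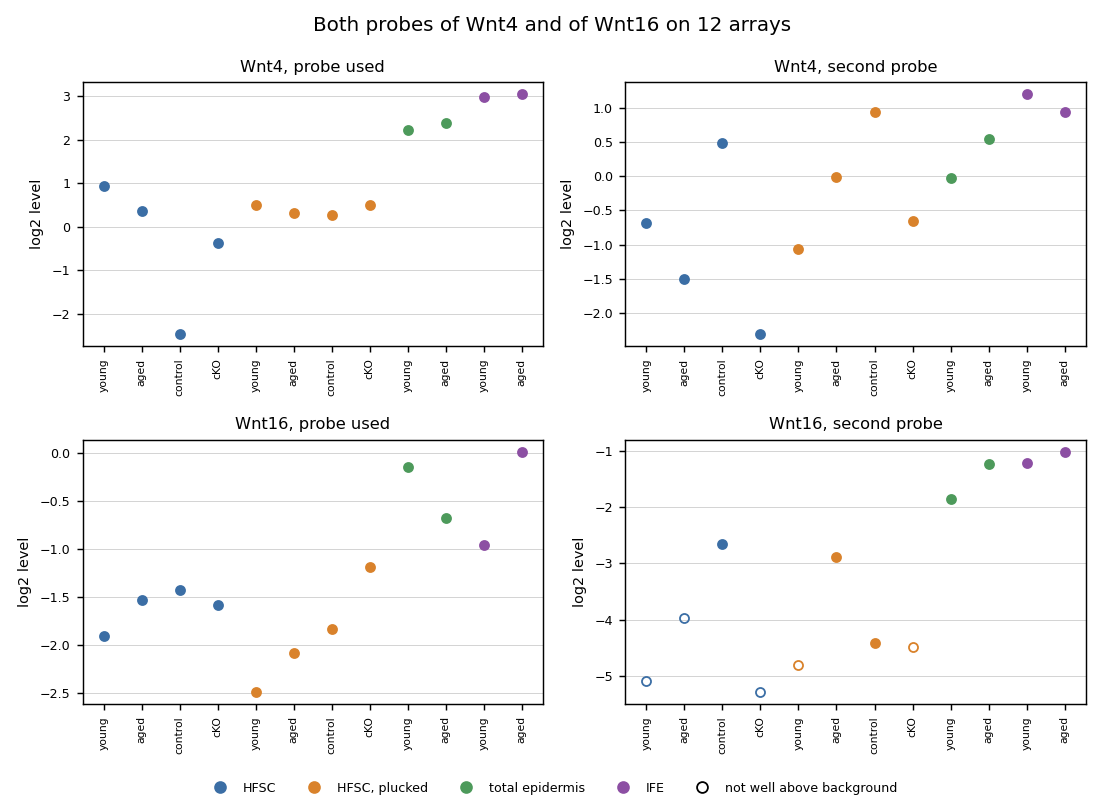
Levels of both probes of Wnt4 (top) and of Wnt16 (bottom) on each of the 12 arrays, as log2 intensity relative to the array's 75th percentile, with open circles where a probe was not well above background. The brighter Wnt4 probe was lowest in unplucked control HFSCs (-2.46), where the second probe stood at 0.49.

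Over the 12 arrays, the ligands' levels varied together to different degrees, as a description with no test, since the 12 points share their cell populations. Wnt3 had a correlation of 0.91 with Wnt3a and of 0.93 with Wnt4, and Wnt7a of 0.96 with Wnt11. Wnt5a had 0.70 with Wnt16, 0.38 with Wnt11, 0.17 with Wnt3 and 0.05 with Wnt4. Wnt7b had 0.53 with Wnt4, 0.40 with Wnt7a, 0.20 with Wnt3 and -0.23 with Wnt5a. Among 22349 genes well above background on at least 6 arrays, those most like Wnt4 were Scin (0.982), Gpt (0.959) and Trpc4 (0.958). Those most like Wnt10a were Dab2ip (0.967), Atp2b4 (0.94) and Gpr107 (0.939). Those most like Wnt5a were Cdan1 (0.96), Trim43b (0.957) and the array's unnamed NAP018159-001 (0.955).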

How the data were processed

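Per the file headers, the authors' scanner files hold linear spot intensities from Agilent Feature Extraction 10.7.3.1. The authors' deposited table of log2 values (55821 probes) was used as an alternative. The steps behind it are not given in the sources used here. Set against log2 processed intensity, scaled to the 75th percentile of each array and centred per probe, its columns had r of at least 0.99989, from which scale and centring were inferred. Its column medians lay between -0.2 and 0.17. Per the labels' protocols, RNA was amplified with the Ovation Pico kit, which can widen the spread of dim genes.

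Here, control spots and outlier spots (129 to 269 of 59305 per array) were left out, and 0 spots were saturated. Log2 processed intensity was set to the array's 75th percentile and averaged over the spots of a probe. Of 55681 probes, 28026 were named through RefSeq accessions and 27655 by the array files. Of 34763 genes, 11198 had several probes, and the brightest on average was used. No column of another series was present, and 0 pairs of arrays held the same values.

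With 1 array per group, the spread came from matched pairs in additive fits (lmFit and eBayes of limma 3.58.1, run in R 4.3.3, with Benjamini-Hochberg adjustment over all genes tested). It measures how far the matched pairs differ from each other and is not a spread between replicates of a group. All comparisons within HFSCs came from a fit of 8 arrays with mouse type and plucking as terms (3 residual degrees of freedom). The difference between plucking responses was an added term (2). IFE and total epidermis were compared with HFSCs over 6 arrays with age as a term (2), and age in the epidermis over 4 arrays with population as a term (1). Genes well above background on fewer than 2 arrays of a fit were not tested. SE is limma's moderated one. A group well above background on none of its arrays gives a bound, "at least N-fold", against, on each array, the higher of the lowest signal well above background and the probe's own value. The number of arrays limits the precision. Alternatives were the background correction (normexp, offset 50), quantile scaling, the authors' values, the filter, the probe, a trend in eBayes, single slides, and pairs left out.

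The ligands and gene lists were chosen with earlier results of these data known. All 10 ligands are given. Other pathway genes were named when called, or, for up to 4 a comparison by size, when at least 2-fold apart in every pair. Probe coordinates are those of the array files (mm9), and promoter windows those of RefSeq (GRCm38). Exons were not annotated here. Figures used matplotlib 3.10.9 in Python 3.11.15.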

Additional observations from a re-analysis of the deposited data

How the results depend on the processing

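The rise of Wnt3 in IFE and in total epidermis kept its call under every alternative fit with a test. The number of ligands past the threshold changed in IFE from 3 to 1 with no filter on dim genes. In total epidermis it changed from 2 to 1 with quantile scaling and to 1 with no filter, and to 3 with normexp, with a trend and with the mean of probes, which gave 4 in IFE. With the mean of probes Wnt16 passed in both, with its second probe not well above background in either HFSC sample compared. Wnt3a had an adjusted p of 0.0501 in IFE with no filter, and in total epidermis of 0.0565 with quantile scaling and 0.0698 with no filter. Wnt4 had 0.0671 in IFE with no filter, and passed in total epidermis with normexp (0.0202) and with an intensity trend (0.0222). In the comparisons within HFSCs, 0 ligands passed without any 1 pair. Single estimates that turned sign were small, rested on 1 slide or came with the mean of probes. After plucking they were Wnt10a within slide 2 (-0.35), Wnt3 within slide 1 (-1.53) and with normexp (-0.15), Wnt3a with normexp (-0.08) and Wnt4 within slide 1 (-0.24). With age they were Wnt11 in HFSCs with quantile scaling (-0.05) and Wnt10b in the epidermis with normexp (0.02). In cKO against control, the mean of probes turned Wnt16 (-0.55) and Wnt4 (-0.52), whose second probes alone gave -1.35 and -2.20. The second Wnt16 probe was not well above background in either cKO sample. In the difference between plucking responses, normexp turned Wnt10b (0.03) and Wnt7a (0.02), and the mean of probes Wnt4 (0.40). The cause was not tested. Leaving out 1 pair at a time, plucking estimates that turned sign ranged from -0.62 to 0.46 for Wnt10a, -0.43 to 1.17 for Wnt3, -0.42 to 1.54 for Wnt3a and -0.44 to 0.04 for Wnt7a. For age in HFSCs the ranges were -2.36 to 0.86 for Wnt10a, -0.10 to 0.24 for Wnt11 and -0.46 to 0.22 for Wnt7a. For cKO against control they were -0.66 to 0.49 for Wnt10a, -0.16 to 0.65 for Wnt16, -0.24 to 1.04 for Wnt3, -0.13 to 0.27 for Wnt5a, -0.47 to 0.98 for Wnt7a and -0.45 to 4.11 for Wnt7b. The -0.24 of Wnt3 came from the unplucked pair, where neither sample was well above background, so its sign cannot be read. For control against young they were -0.38 to 0.08 for Wnt11, -3.02 to 2.09 for Wnt3a and -0.81 to 0.21 for Wnt7a. In the epidermis they were -0.20 to 0.73 for Wnt5a in total epidermis against HFSCs and, with age, -0.53 to 0.97 for Wnt16 and -0.08 to 0.44 for Wnt5a. For the difference between plucking responses they were -0.46 to 2.53 for Wnt10a, -0.35 to 0.12 for Wnt11, -0.06 to 0.89 for Wnt16, -1.97 to 2.82 for Wnt3, -0.74 to 4.37 for Wnt3a, -2.31 to 0.85 for Wnt4, -0.66 to 0.22 for Wnt5a and -0.94 to 0.17 for Wnt7a. Over all genes, the 127 called after plucking became 1258 with normexp, 22 with no filter, 301 with the stricter filter, 882 with a trend, 221 with the mean of probes and 0 within either slide or without any 1 pair. With normexp the median of all genes after plucking moved to -0.14, and rises made up 67.5% of its calls in place of 78.7%. The 1135 called in IFE became 605 with no filter and 1786 with a trend, the 934 in total epidermis 1420, 328 and 1622 with normexp, no filter and a trend, and the 0 called with age in the epidermis 23 with a trend. In the comparisons of the epidermis, leaving out a pair left no residual degrees of freedom, so these values have no test. No pairing by replicate number was possible because all groups share only the replicate number 1, so no block on numbers can be fitted. The pairs named here match arrays by mouse type, age or population.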

Other observations

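Of 9 other Wnt ligands on the array, Wnt5b, a relative of Wnt5a, ran against the 10 described above. It stood between 1.48 and 3.21 on the 8 HFSC arrays, at -0.98 in young and 0.01 in aged total epidermis, and at -0.17 and -0.08 in IFE of young and aged mice. No epidermal sample reached an HFSC sample. Wnt5b fell 6.78-fold in total epidermis (log2 difference -2.76 ± 0.41, SE, n = 2 pairs, limma adjusted p = 0.0437) and differed by -2.39 ± 0.41 in IFE (adjusted p = 0.0519). Wnt2 and Wnt8a were well above background on 0 of 12 arrays.

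Several Wnt genes lie in pairs on a chromosome, and the partners of 4 of the ligands are given here as a description with no test. The Wnt10b probe lies 21 kb from that of Wnt1 (r = -0.11 over 12 arrays), the Wnt10a probe 19.1 kb from that of Wnt6 (r = 0.46), the Wnt3a probe 85.3 kb from that of Wnt9a (r = 0.43) and the Wnt3 probe 90.1 kb from that of Wnt9b (r = 0.22), by mm9 coordinates. Wnt9b was well above background on 2 of 12 arrays and Wnt9a on 8, while Wnt1 and Wnt6 were so on all 12. Wnt6 stood higher in IFE than in HFSCs in both pairs, by 1.19 and 2.05 (1.62 ± 0.35, SE, n = 2 pairs, limma adjusted p = 0.0847).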
